A study of Mus musculus with 24 samples.

Results

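The comparison described here set ER-Hoxb8 cells expressing P199L-ERG against ER-Hoxb8 cells expressing WT-ERG when both were treated with the HDAC3 inhibitor BRD3308. It asked whether the variant still differed from wild type once HDAC3 was inhibited. Its members were the libraries labelled P199L-ERG_HDAC and WT_ERG_HDAC, 4 replicates each, which are 8 of the 24 RNA sequencing libraries of the experiment, and all genes that passed a filter on low counts, 12963 of 53801. The other libraries, 4 in each group, came from P199L-ERG and WT-ERG cells in DMSO, the solvent, and from cells with the empty vector (BB) in DMSO or BRD3308.

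ER-Hoxb8 cells are murine C57BL/6 granulocyte-monocyte progenitors, held immature by an estrogen-dependent Hoxb8 and labelled as myeloid progenitors, that mature toward neutrophils when estrogen is withdrawn. In every group, vehicle included, beta-estradiol was washed away. The drug was given at 5 µM for 36 h per the study's methods, whereas other passages of its text give another dose and another time. The ERG in these lines is the human protein, carried by a lentivirus with a PGK promoter and a GFP marker, and GFP-positive cells were sorted after transduction. The replicates are described as independent experiments on stable lines, and separate transductions are not described. The variant and the line that carries it therefore cannot be told apart.

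ERG is an ETS transcription factor that helps to maintain hematopoietic stem cells and is overexpressed in some leukemias. Its ETS domain binds DNA at sites with a GGAA core, and its pointed (PNT) domain takes part in protein contacts. NCoR is a co-repressor scaffold that carries the deacetylase HDAC3, which removes acetyl groups from histones. The P199L substitution lies at the end of the PNT domain, and the study asked how it bears on contact with this complex.

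The 8 libraries held 13105875 to 16145090 counts, and the 24 libraries 12510036 to 16280939. All 11 fixed markers of granulocyte-monocyte progenitors were tested. *Mpo*, the myeloperoxidase of primary granules, was at 14410 to 15920 CPM (counts relative to the library size after TMM scaling, the unit of all levels here) in WT-ERG and at 14590 to 16320 CPM in P199L-ERG cells. Of 8 erythroid markers 5 were at 0 in all 8 libraries, as were the mast cell markers *Fcer1a* and *Tpsb2*, where a count of 0 allows up to 0.229 CPM in the smallest library. Libraries with the same replicate number deviated together (r from 0.13 to 0.57 over 9085 genes), so counts are also given from a fit with the replicate number as a block.

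*Erg* itself (chromosome 16, 95359169 to 95586593, GRCm38) was at 124, 117, 122 and 123 CPM in the 4 WT-ERG libraries with BRD3308 and at 122, 112, 122 and 118 CPM in the 4 P199L-ERG libraries. The groups overlapped, and their means were 121 ± 3.32 and 118 ± 4.64 CPM (SD, n = 4). The log2 difference was -0.04, with a 95% confidence interval from -0.12 to 0.05. Neither edgeR (adjusted p = 0.853) nor an exact permutation test over these libraries called it (two-sided p = 0.286, where 4 against 4 libraries can reach 0.0286). Reads of the human transgene that map to mouse *Erg* cannot be separated in these counts. *Hoxb8*, the gene that immortalises the line, was at 822 ± 24.1 and 850 ± 11.3 CPM (log2 fold change 0.05, 95% confidence interval -0.04 to 0.13).

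Under BRD3308, 170 genes were higher and 271 lower in P199L-ERG than in WT-ERG cells (edgeR quasi-likelihood test, Benjamini-Hochberg adjusted p under 0.05). Together they were 3.4% of the 12963 genes tested, 1.31% higher and 2.09% lower. Most of the differences were small. The median log2 fold change was 0.43 among the higher and -0.41 among the lower genes, and 266 of the 441 lay under 0.5 on the log2 scale. Beyond 1 on that scale, a difference of at least a doubling, 37 genes were higher and 27 lower. At 1619 genes the unadjusted p was under 0.05. With the replicate block, 295 genes were higher and 437 lower. For 424 of the 441 genes the 4 libraries of one line did not overlap the 4 of the other, which held for 10.5% of all genes tested. Protein-coding genes made up 91.4% of the called genes and 84.8% of the genes tested. When the genes were divided by mean level into 4 equal groups, the lowest group held 44 higher and 59 lower genes, the next 49 and 108, the third 39 and 53, and the highest 38 and 51.

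**Figure D1:**
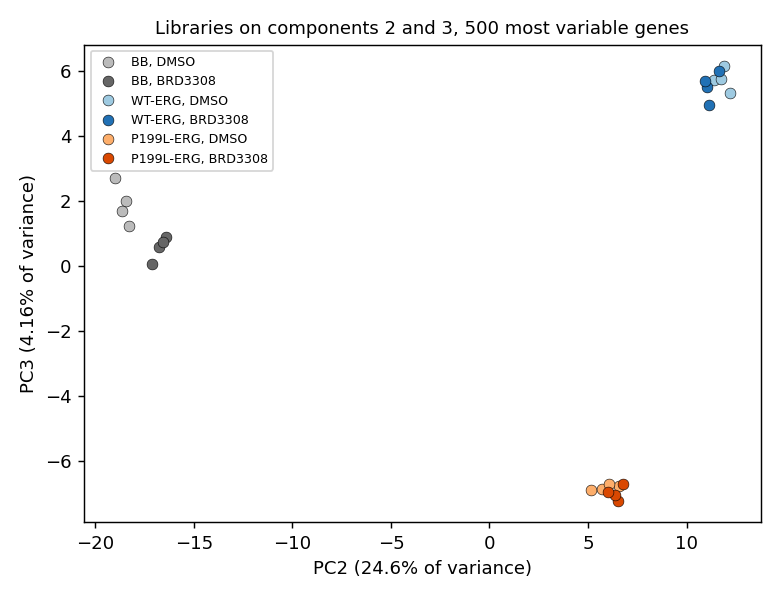
Each point is a library, placed by principal components PC2 (24.6% of variance) and PC3 (4.16%) of the 500 most variable genes, on unitless axes. On PC3 the BRD3308-treated WT-ERG libraries sit at 4.97 to 6.00 and the P199L-ERG libraries at -7.21 to -6.70, with BRD3308-treated BB libraries at 0.06 to 0.89.

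The plot of libraries on PC2 and PC3 shows the same separation over many genes at once. PC1 (60.9% of variance) divided drug from solvent. On PC2, BRD3308-treated P199L-ERG libraries lay at 6.01 to 6.76, WT-ERG libraries at 10.9 to 11.7, and BB libraries at -17.1 to -16.4. PC3 set WT-ERG and P199L-ERG libraries on opposite sides of BB libraries, in DMSO (5.33 to 6.15 against -6.90 to -6.71) as with BRD3308.

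The genes described by name next were chosen among called genes with a symbol, a mean log2 CPM over the 8 libraries at or above 2 and no overlap between the lines. Genes of lower level, some with larger fold changes, are in the counts, and those named elsewhere were named by other rules. Within this choice, 5 of the genes that were higher in P199L-ERG cells differed by more than 2 on the log2 scale. *Itga1* (chromosome 13, 114953096 to 115101964), the alpha-1 subunit of a collagen-binding integrin, was at 1.1, 1.23, 1.4 and 1.07 CPM in the WT-ERG libraries and at 15.4, 14.3, 13.7 and 13.9 CPM in the P199L-ERG libraries. Every P199L-ERG library was far above every WT-ERG library, with a log2 fold change of 3.56 (SE 0.16, edgeR adjusted p = 1.85e-15). *Cysltr1* (chromosome X, 106574346 to 106603679), a receptor for cysteinyl leukotrienes, went from 1.55, 1.73, 2.2 and 2.75 to 10.4, 12.9, 12 and 11.9 CPM (2.53, SE 0.14, adjusted p = 3.83e-13). *Sorl1* (chromosome 9, 41964720 to 42124297), a sorting receptor of endosomes, was at 7.75, 8.2, 6.28 and 7.26 CPM with WT-ERG and at 38.9, 40.6, 41.5 and 41.3 CPM with P199L-ERG (2.46, SE 0.09, adjusted p = 8.19e-17). None of these libraries overlapped either. *Fam234b* was at 2.84 ± 0.428 and 15 ± 0.682 CPM (SD, n = 4, 2.41, SE 0.14, adjusted p = 5.06e-13). *Miga1*, whose product acts in mitochondrial fusion, was at 3.41 ± 0.7 and 17 ± 1.36 CPM (2.31, SE 0.12, adjusted p = 9.43e-14).

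The next 5 higher genes within this choice differed by about a doubling or somewhat less. *Fgl2*, a fibrinogen-like protein of immune cells, was at 76.7, 71, 72.2 and 71.2 CPM in WT-ERG libraries and at 166, 162, 152 and 153 CPM in P199L-ERG libraries (1.12, SE 0.06, adjusted p = 7.32e-14). The imprinted, retrotransposon-derived gene *Peg10* was at 7.92 ± 0.423 and 17.1 ± 1.76 CPM (SD, n = 4, 1.11, SE 0.10, adjusted p = 6.47e-09), and its imprinted neighbour *Sgce*, named after its value was seen, was also higher (log2 fold change 0.75). *Tspoap1* was at 188 ± 8.54 and 391 ± 10.03 CPM (1.06, SE 0.06, adjusted p = 1.49e-13). *Rhou*, an atypical small GTPase, gave 0.89, SE 0.07, and the doublesex-related gene *Dmrta2* gave 0.87, SE 0.11. No library of one line overlapped the other for these 5 genes, which was part of the rule that chose them.

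Within the same choice, the genes that were lower in P199L-ERG cells began with *Bex3* (chromosome X, 136270253 to 136271978), a small adaptor linked to neurotrophin receptor signalling. It was at 9.43, 8.44, 8.21 and 7.72 CPM in WT-ERG libraries and at 2.42, 3.29, 2.94 and 2.43 CPM in P199L-ERG libraries (-1.61, SE 0.13, adjusted p = 7.45e-10). *Galnt6*, which starts O-linked glycosylation in the Golgi, was at 21.8, 19.5, 21.2 and 20.1 CPM with WT-ERG and at 7.73, 7.03, 8.04 and 7.76 CPM with P199L-ERG (-1.44, SE 0.10, adjusted p = 1.81e-11). The highest P199L-ERG library was below the lowest WT-ERG library for both. The matrix protein fibulin 1, *Fbln1*, was at 44.3 ± 3.27 and 19.2 ± 1.47 CPM (SD, n = 4, -1.20, SE 0.07, adjusted p = 3.81e-13). *Mogat2*, an acyltransferase of triglyceride synthesis, was at 74.8 ± 4.06 and 32.9 ± 2.4 CPM (-1.18, SE 0.06, adjusted p = 7.32e-14). *Arap2*, a GTPase-activating protein, was at 11.2 ± 0.701 and 5.33 ± 0.335 CPM (-1.07, SE 0.10, adjusted p = 4.69e-08). Outside this choice, with a mean log2 CPM of 1.52, the organic cation transporter *Slc22a3* was lower by a similar step (-1.09, SE 0.19).

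Further down came *Stfa3*, a stefin A protease inhibitor of neutrophils, at 138, 149, 172 and 191 CPM with WT-ERG and 74.5, 77.6, 85.1 and 91.1 CPM with P199L-ERG (-0.98, SE 0.13, adjusted p = 1.41e-05). *Psrc1*, a spindle protein, gave -0.94, SE 0.10. *Zfp560*, a zinc finger gene, gave -0.88, SE 0.11. The histone H4 gene *Hist1h4i* gave -0.92, SE 0.09. Reads of histone genes and stefins can be shared with near-identical copies, so their counts are uncertain.

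Sequences upstream of the start of *Itga1* and *Bex3*, first in each direction within this choice, and of both stefins are shown, since both stefins were lower and ETS factors bind GGAA cores. Each is the 250 bases before the start in RefSeq (GRCm38.p6), 5′ to 3′ on the strand of the gene, with GGAA and its reverse complement TTCC in capitals. They lie at chr13:115101965-115102214 (minus strand, *Itga1*), chrX:136270003-136270252 (plus strand, *Bex3*), chr16:36408364-36408613 (minus strand, *Stfa2*) and chr16:36455393-36455642 (minus strand, *Stfa3*).
Itga1: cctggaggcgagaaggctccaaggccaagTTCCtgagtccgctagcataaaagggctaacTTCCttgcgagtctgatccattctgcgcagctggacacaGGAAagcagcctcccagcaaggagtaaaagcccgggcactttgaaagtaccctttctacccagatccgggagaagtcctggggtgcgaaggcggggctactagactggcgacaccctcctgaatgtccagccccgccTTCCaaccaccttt
Bex3: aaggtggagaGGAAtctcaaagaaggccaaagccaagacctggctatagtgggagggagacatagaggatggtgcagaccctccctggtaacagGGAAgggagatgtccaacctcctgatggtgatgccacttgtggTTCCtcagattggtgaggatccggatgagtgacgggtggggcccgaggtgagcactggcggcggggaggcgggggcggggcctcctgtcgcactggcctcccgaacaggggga
Stfa2: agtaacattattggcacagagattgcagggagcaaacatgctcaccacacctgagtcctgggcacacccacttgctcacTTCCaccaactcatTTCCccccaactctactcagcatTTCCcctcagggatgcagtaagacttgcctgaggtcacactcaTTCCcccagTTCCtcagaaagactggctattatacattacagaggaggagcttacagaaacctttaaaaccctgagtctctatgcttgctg
Stfa3: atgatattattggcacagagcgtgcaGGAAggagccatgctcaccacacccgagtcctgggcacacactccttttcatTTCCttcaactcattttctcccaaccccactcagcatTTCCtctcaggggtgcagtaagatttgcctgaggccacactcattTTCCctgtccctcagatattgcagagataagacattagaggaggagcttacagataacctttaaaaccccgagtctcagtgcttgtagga
The *Stfa2* and *Stfa3* sequences were identical at 205 aligned bases, 80.4% of the alignment. The stretch before *Stfa2* held 5 cores, and those before *Stfa3*, *Itga1* and *Bex3* held 4, 4 and 3. Over all tested genes with a promoter, the median was 3 cores, in a somewhat longer window that is described below with the motifs. It was also 3 over the higher and over the lower genes. Whether the counts of these stretches differ from that background was not tested.

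**Figure D2:**
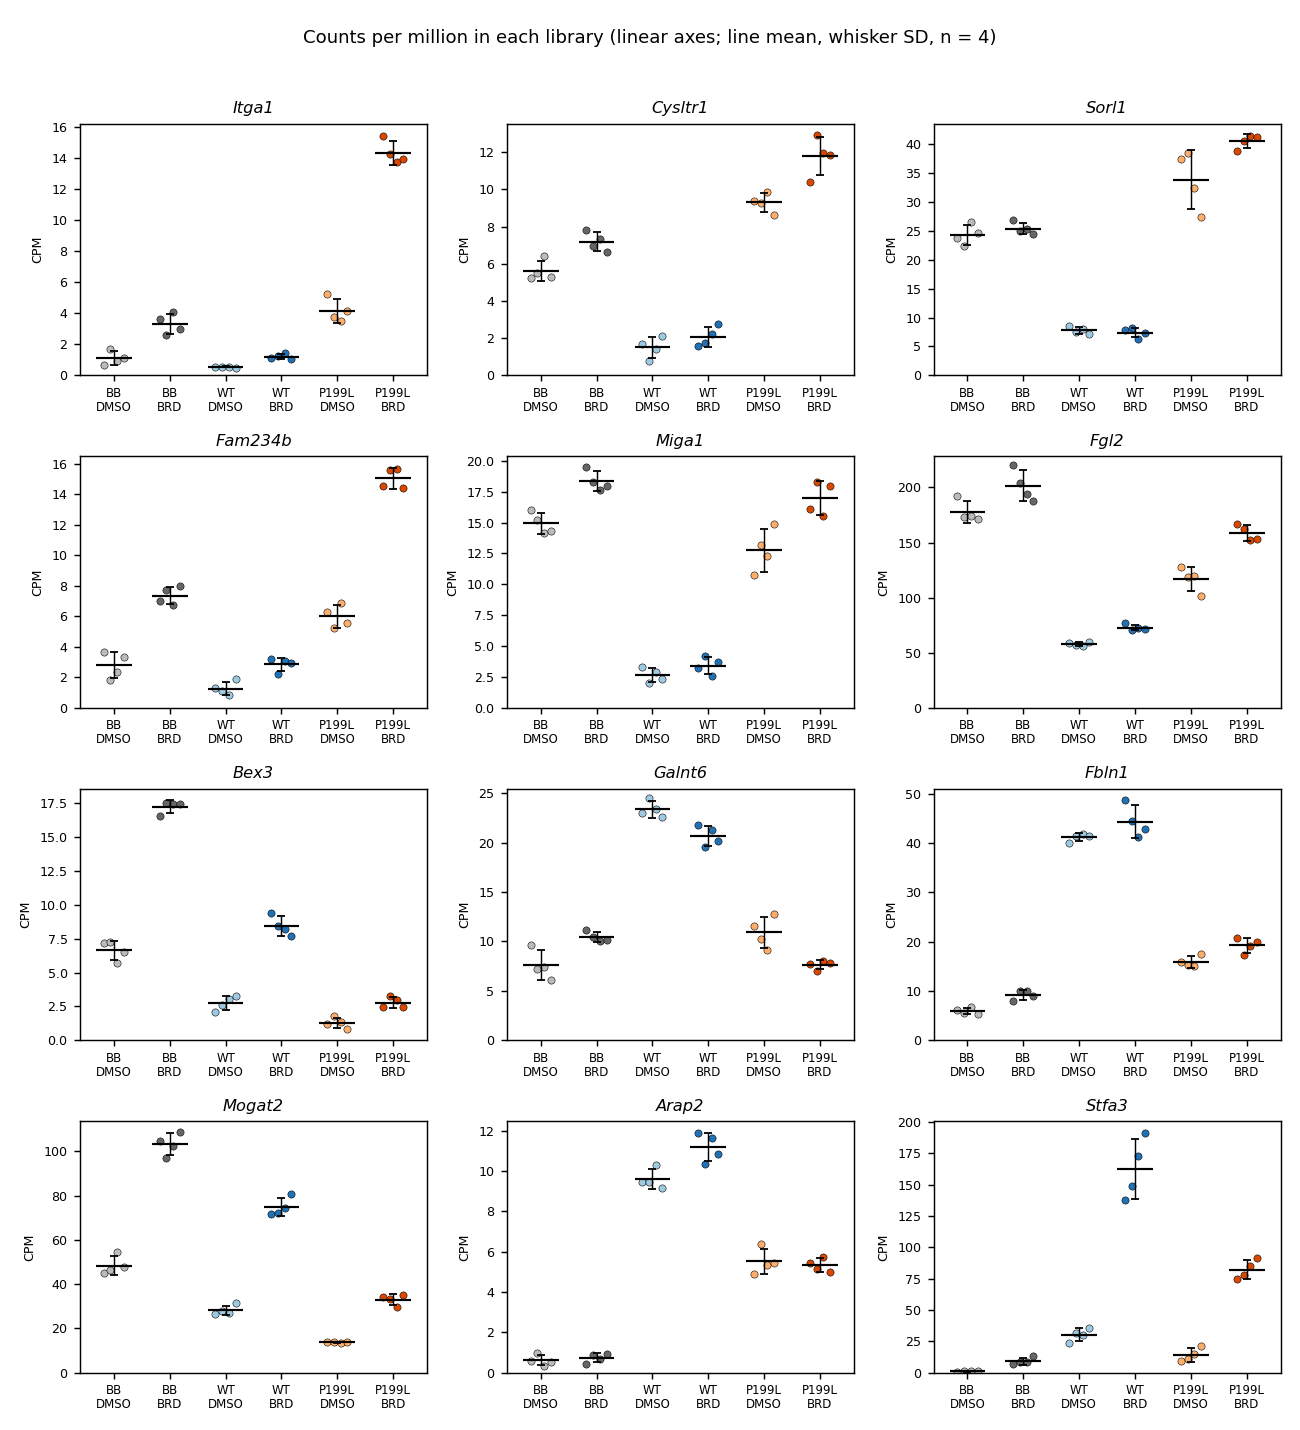
CPM in each of the 24 libraries for 12 genes, with 6 groups along the horizontal axis, BRD standing for BRD3308, a line at the mean and whiskers of 1 SD (n = 4). The upper 6 genes are higher in P199L-ERG than in WT-ERG cells with BRD3308 and the lower 6 are lower, with *Itga1* at 1.2 against 14.3 CPM and *Stfa3* at 162 against 82.1 CPM.

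The levels of these genes in BRD3308-treated BB cells, which carry no ERG transgene, placed P199L-ERG in several positions, as the plot of 12 genes by library shows. The BB libraries and P199L-ERG libraries were compared in the same fit. For *Miga1* BB cells were at 18.3 ± 0.81 CPM (SD, n = 4), and P199L-ERG against BB gave -0.11, SE 0.09, adjusted p = 0.5, which did not pass. For *Fgl2* BB cells were at 202 ± 13.9 CPM (-0.35, SE 0.05, adjusted p = 3.24e-05), so that P199L-ERG cells lay between BB and WT-ERG cells. *Fbln1*, *Arap2* and *Stfa3* also lay between, with BB cells at 9.17 ± 1, 0.733 ± 0.225 and 9.24 ± 2.81 CPM. *Itga1* at 3.3 ± 0.669 CPM, *Cysltr1* at 7.19 ± 0.498 CPM, *Sorl1* at 25.4 ± 1.01 CPM and *Fam234b* at 7.34 ± 0.575 CPM in BB cells were higher in P199L-ERG cells than in either other line (2.10, SE 0.13, adjusted p = 6.87e-13 against BB for *Itga1*, 0.67, SE 0.08, adjusted p = 2.2e-07 for *Sorl1*). *Bex3* at 17.3 ± 0.468 CPM, *Mogat2* at 103 ± 4.91 CPM and *Galnt6* at 10.4 ± 0.525 CPM in BB cells were lower in P199L-ERG cells than in either (-2.63, SE 0.12, adjusted p = 4.15e-16 against BB for *Bex3*, -0.45, SE 0.11, adjusted p = 0.00292 for *Galnt6*).

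The same comparison in DMSO used separate libraries, so both can be set side by side. P199L-ERG replicate 4 in DMSO stood apart from its group, with chi-square values per degree of freedom of 14.1 to 23.8 against the others, where no other pair of replicates exceeded 8.44. In both DMSO replicates 4 the deviation from the group mean correlated with gene length (r of -0.45 with P199L-ERG and -0.51 with WT-ERG over 9083 genes). It did so with the opposite sign in DMSO replicates 1 (0.45 and 0.36) and 2 (0.36 and 0.31). In the 8 libraries with BRD3308, r was -0.24 to 0.26. The part of this in the results was not tested beyond leaving out single libraries or both replicates 4. Without the drug 289 genes were higher and 317 lower in P199L-ERG than in WT-ERG cells, 4.67% of those tested, with the replicate block 527 and 499, and without both replicates 4 288 and 299. Of these 606 genes, 563 (92.9%) had the same sign under BRD3308 and 264 (43.6%) were called there in the same direction, while 0 were called in the opposite direction. In reverse, the 264 were 59.9% of the 441 genes called under BRD3308, of which 422 (95.7%) had the same sign in DMSO. Over all genes tested, 60.6% had the same sign in both. Across all 12963 genes Pearson's r between the fold changes was 0.51 and Spearman's rho 0.30, and across the 606 genes called in DMSO, which were chosen for a difference there, they were 0.90 and 0.91. These describe genes, which are not independent replicates.

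Over the genes called in DMSO, the median fold change was smaller under BRD3308. It was 0.35 on the log2 scale in DMSO and 0.20, counted in the direction of DMSO, with the drug. Genes called under BRD3308 had a median of 0.41 there and 0.37 in DMSO. Each set was chosen by its values in the treatment named first, and those values are a description. Of the 69 genes called beyond 1 on the log2 scale in DMSO, 67 kept their sign and 53 were called again, with medians of 1.43 and 1.09. *Miga1* was at 2.27 in DMSO and 2.31 with BRD3308, *Fgl2* at 1.02 and 1.12, *Fbln1* at -1.38 and -1.20, and *Mogat2* at -1.03 and -1.18.

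**Figure D3:**
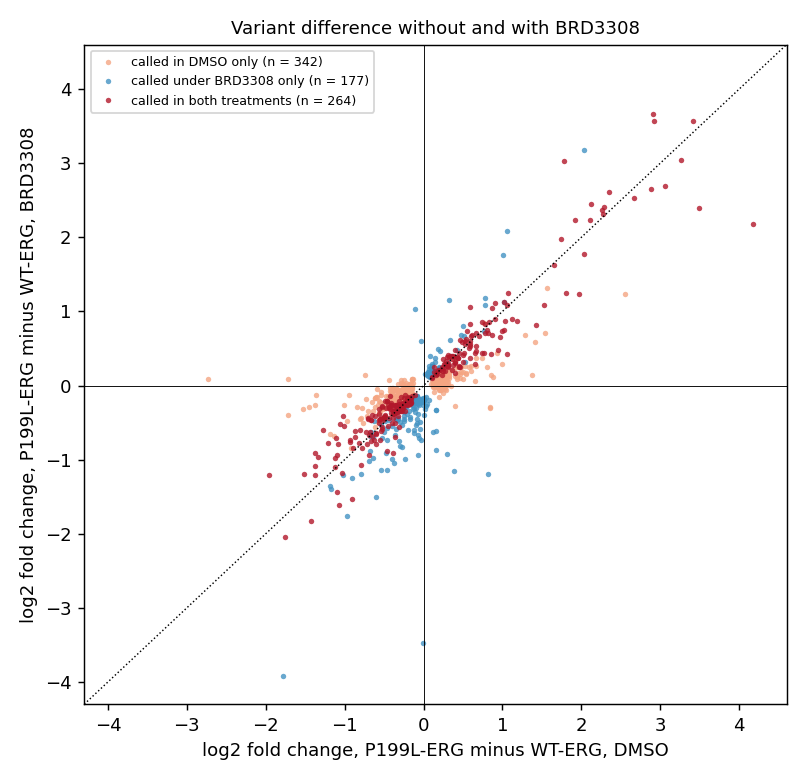
Log2 fold changes of P199L-ERG against WT-ERG without (horizontal) and with BRD3308 (vertical), 1 point for each of the 783 genes called in at least 1 treatment, with a dotted line of equality. The 264 genes called in both lie along the line in the upper right and lower left, and *Itga1* is at 2.92 and 3.56.

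Whether the drug changed the variant's difference was tested directly as the fold change with BRD3308 minus that in DMSO. It passed for 6 of 12963 genes (0.0463%), 3 upward and 3 downward. The unadjusted p was under 0.05 for 764 genes, and with the replicate block 16 genes passed upward and 12 downward. Without both DMSO replicates 4, 6 passed upward and 7 downward. The median standard error was 0.11 for this difference and 0.08 for the comparison under BRD3308, so a change of the variant's effect had to be larger to be seen. Without any 1 of WT-ERG replicate 2 in DMSO, WT-ERG replicates 1 and 3 and P199L-ERG replicates 1, 2 and 3 with BRD3308, edgeR called 0 genes, and with all libraries DESeq2 called 6 upward and 11 downward.

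Of the 6 genes, 5 are described, and the largest changes among them were those of *Herpud1* and *Dnajb9*, both genes of the endoplasmic reticulum stress response. *Herpud1*, which acts in the degradation of misfolded proteins, was at 160.4, 165, 160.5 and 163 CPM in WT-ERG and 181, 186, 191 and 164 CPM in P199L-ERG cells in DMSO. With BRD3308 it was at 199.7, 217, 209 and 212 and 155, 171, 168 and 171 CPM. In DMSO 3 of the 4 P199L-ERG libraries were above all WT-ERG libraries, and with BRD3308 all 4 were below them (log2 fold change 0.16 in DMSO and -0.33 with BRD3308, difference -0.49, SE 0.08, adjusted p = 0.0153). *Dnajb9*, a co-chaperone of BiP, moved from 0.16 to -0.33 (-0.49, SE 0.09, adjusted p = 0.0332), and its libraries overlapped under BRD3308, at 70.8, 70.2, 64.9 and 55.4 and 56.9, 53.4, 50.8 and 47.5 CPM.

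*Tspoap1* differed more with the drug, by 1.06 against 0.60 (difference 0.46, SE 0.08, adjusted p = 0.0274). Its WT-ERG libraries were at 100.5, 108, 107 and 101 CPM in DMSO and 179.8, 191, 182 and 198 CPM with BRD3308, and its P199L-ERG libraries at 163, 171, 164 and 130.2 and 378, 387, 398 and 399.6 CPM. For *Osbpl3* and *Krt80* the difference between the lines was smaller with the drug. *Osbpl3*, a lipid-binding protein, went from 0.42 to 0.08 (-0.34, SE 0.06, adjusted p = 0.0153), and under BRD3308 its fold change no longer passed (adjusted p = 0.357). *Krt80*, a keratin, went from -0.62 to -0.16 (0.46, SE 0.09, adjusted p = 0.0493), and the latter did not pass (adjusted p = 0.122), although it did in 3 of 17 alternatives, among them the replicate block (adjusted p = 0.0304). Each of these 5 changes lost its call when some single library of the 16 was left out, *Osbpl3* in 6 cases, *Herpud1* in 8, *Tspoap1* in 10, and *Dnajb9* and *Krt80* in 13 each, with adjusted p values of 0.245 or less. The lipid droplet protein *Plin3* (0.40 in DMSO, 0.16 with BRD3308) and the metalloprotease *Adam8* (-1.02 and -0.41) came next and did not pass (adjusted p = 0.083 and 0.083).

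**Figure D4:**
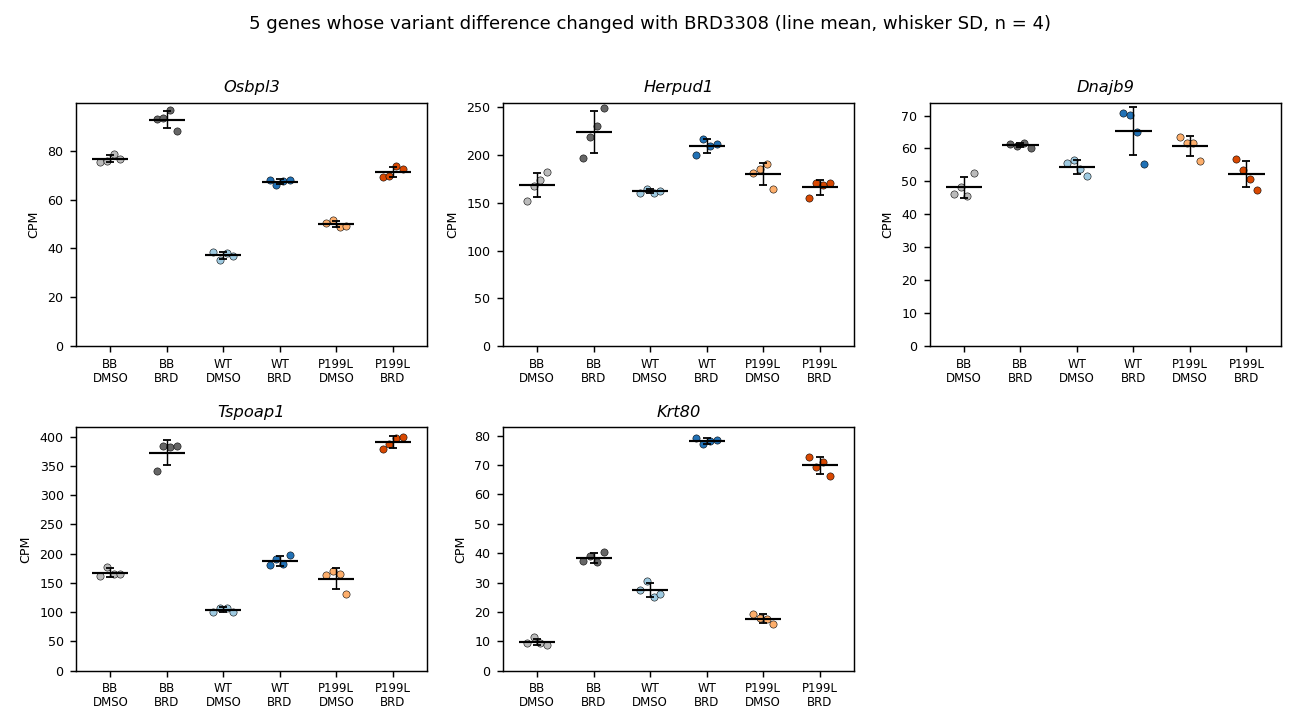
CPM in each library for 5 genes whose P199L-ERG to WT-ERG difference changed with BRD3308, in the 6 groups, with a line at the mean and whiskers of 1 SD (n = 4). For *Herpud1* the log2 fold change of the variant is 0.16 in DMSO, where it did not pass (edgeR adjusted p = 0.156), and -0.33 with BRD3308, where it passed.

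Genes of 47 lists, by lineage, function and complex, were then followed. Of 678 members tested, 20 were higher and 39 lower in P199L-ERG cells under BRD3308, which is 8.7% beside 3.4% of all genes. The lists were written with earlier results of these data known, so this share is no evidence about them. Of the lists, 31 had at least 1 call and 16 had none. Beside 3.4% of all genes, 0 calls in a short list is no result about that list. With the replicate block 101 members passed in place of 59. The median log2 fold change over all genes tested was 0.00234, beside which the medians of the lists can be read.

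**Figure D5:**
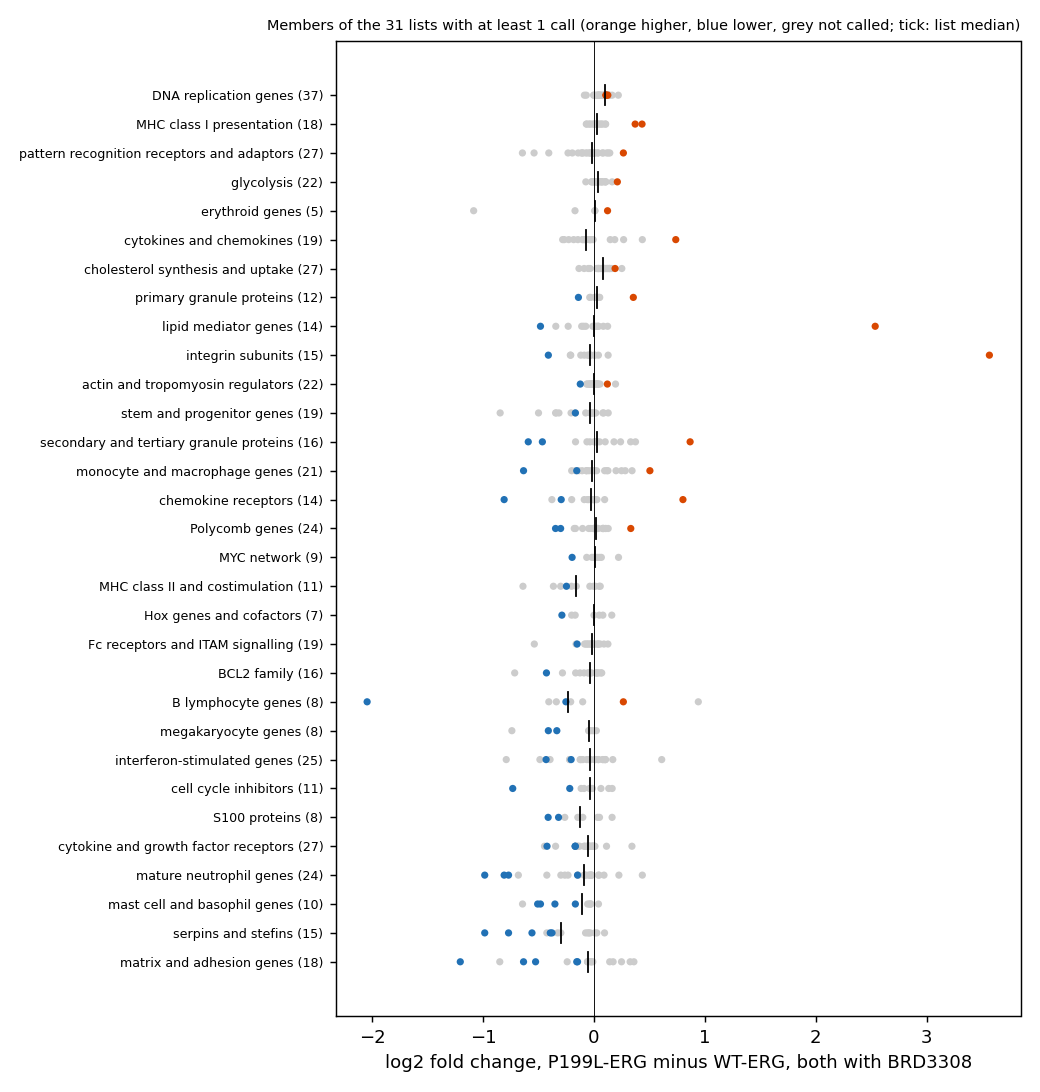
Log2 fold changes of P199L-ERG against WT-ERG with BRD3308 for the tested members of the 31 lists with at least 1 call, 1 point for each gene, the number of members in brackets and a tick at the median. Serpins and stefins have the lowest median, -0.30, and *Itga1* and *Cysltr1* lie far to the right of all other members.

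Of 24 mature neutrophil genes, 4 were lower and 20 did not pass (median -0.09). Among the lower ones were *Stfa3*, *Stfa2* (-0.77, SE 0.15, adjusted p = 0.00144) and the formyl peptide receptor *Fpr2* (-0.81, SE 0.23, adjusted p = 0.0466). *Il1b*, which encodes interleukin 1 beta, had a fold change of 0.44 (adjusted p = 0.139), and passed in 3 alternatives, among them the replicate block (0.42, adjusted p = 0.0204 with the replicate block). Of 16 secondary and tertiary granule proteins, *Chil3* was higher, at 14.5, 12.6, 15 and 16 CPM with WT-ERG and 26.5, 26, 25.4 and 27.6 CPM with P199L-ERG (0.87, SE 0.12, adjusted p = 2.41e-05). The antimicrobial cathelicidin *Camp* (-0.59, SE 0.14, adjusted p = 0.0108) and *Padi4*, the enzyme that citrullinates histones in extracellular traps (-0.46, SE 0.10, adjusted p = 0.00388), were lower. Of 12 genes on the primary granule list, neutrophil elastase, *Elane*, was higher, at 2146 ± 58.6 and 2745 ± 80.8 CPM (SD, n = 4, 0.36, SE 0.05, adjusted p = 1.92e-05). The list also held the chaperone *Calr*, which was lower (-0.14, SE 0.03). None of the 6 NADPH oxidase subunits passed, with fold changes from -0.03 to 0.05. The call of *Fpr2* was lost without any 1 of WT-ERG 1, 2, 3 and 4 and P199L-ERG 1, 2 and 3 (adjusted p at most 0.211), that of *Camp* without WT-ERG replicate 4 or P199L-ERG replicate 1 (adjusted p = 0.0646 at most) and that of *Calr* without any 1 of WT-ERG 1, 2 and 3 and P199L-ERG 1, 2, 3 and 4 (adjusted p at most 0.1).

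Of 21 monocyte and macrophage genes, coagulation factor XIII, *F13a1*, was higher (463, 451, 463 and 459 CPM with WT-ERG, 651, 644, 634 and 676 CPM with P199L-ERG, 0.50, SE 0.04, adjusted p = 6.88e-11). The proteoglycan *Vcan* (-0.63, SE 0.10, adjusted p = 0.000146) and the matrix protein *Tgfbi* (-0.15, SE 0.04, adjusted p = 0.0472) were lower, and 18 did not pass (median -0.02). *Ly6c2*, which encodes the monocyte antigen Ly6C, was at 1069, 1111, 1160 and 1244 CPM with WT-ERG and 1266, 1308, 1332 and 1357 CPM with P199L-ERG. Its libraries did not overlap, and its fold change of 0.20 (95% confidence interval 0.07 to 0.33, adjusted p = 0.0933) passed in 5 of 17 alternatives, among them the replicate block (0.20, adjusted p = 9.07e-05 with the replicate block), beside 0.60 in DMSO (adjusted p = 2.75e-07). The difference between both treatments did not pass (-0.40, SE 0.09, adjusted p = 0.169). The myeloid lectin *Clec12a* gave 0.12 (95% confidence interval -0.0046 to 0.24) and did not pass (adjusted p = 0.433). None of 17 myeloid transcription factors and none of 16 ETS factors passed. The call of *Tgfbi* was lost without any 1 of the 8 libraries (adjusted p at most 0.166).

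Mast cell and basophil genes were lower where they differed. Of 10 measured, 4 were lower and 0 higher (median -0.11). *Cpa3*, a mast cell carboxypeptidase, was at 67.4, 65.5, 68.8 and 60.8 CPM with WT-ERG and 49.4, 45.5, 47.1 and 42.7 CPM with P199L-ERG (-0.51, SE 0.06, adjusted p = 4.14e-06). *Mcpt8*, a basophil protease, was at 63.5, 66.3, 69.6 and 63.4 and 51.7, 50.9, 52.8 and 50.6 CPM (-0.35, SE 0.07, adjusted p = 0.00127). No library overlapped for either gene. The prostaglandin D2 synthase *Hpgds* (-0.48, SE 0.10, adjusted p = 0.00534) and the stem cell factor receptor *Kit* (-0.17, SE 0.04, adjusted p = 0.00439) were the others. Over 8 mast cell and basophil markers the summed level was 330.3 to 352.9 CPM in WT-ERG and 289.2 to 309.5 CPM in P199L-ERG libraries. Of the 6 markers tested, *Cpa3* and *Mcpt8* were lower. *Hdc* (-0.06), *Ms4a2* (-0.04), *Gata2* (-0.03) and *Prss34* (-0.64) did not pass (edgeR adjusted p from 0.434 to 0.964). The part of such cells in these results was not tested. In bulk samples, fewer cells of a type and less RNA per cell cannot be told apart.

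Other lineages gave few calls. Of 8 megakaryocyte genes, platelet factor 4, *Pf4* (-0.33, SE 0.08, adjusted p = 0.014), and *Itga2b*, which encodes the CD41 integrin (-0.41, SE 0.08, adjusted p = 0.00138), were lower. The summed level of 7 megakaryocyte markers was 52.5 to 54.3 CPM in WT-ERG and 40.3 to 44.5 CPM in P199L-ERG libraries, and their part was likewise not tested. Of the 4 markers tested, *Gp9* (-0.01) and *Vwf* (0.02) did not pass. Of 8 B lymphocyte genes, *Cd24a*, a surface glycoprotein gene with near-identical copies that make its counts uncertain, was lower, at 5.17, 3.21, 4.47 and 4.28 CPM with WT-ERG and 0.851, 1.14, 0.915 and 1.22 CPM with P199L-ERG (-2.04, SE 0.19, adjusted p = 1.91e-08), as was the B cell receptor subunit *Cd79b* (-0.25, SE 0.07). The surrogate light chain gene *Igll1* was higher (0.27, SE 0.06), and *Vpreb1*, its partner, passed only in some fits (0.94, adjusted p = 0.0662, and 0.94, adjusted p = 0.0361 with the replicate block). Of 5 erythroid genes the transferrin receptor *Tfrc* was higher (0.12, SE 0.03). No gene of the dendritic cell, eosinophil or T and NK lists passed. The call of *Pf4* was lost without any 1 of WT-ERG 2 and 3 and P199L-ERG 4 (adjusted p at most 0.0703), that of *Cd79b* without any 1 of WT-ERG 3 and 4 and P199L-ERG 1, 2, 3 and 4 (adjusted p at most 0.149) and that of *Igll1* without any 1 of WT-ERG 1 and 2 and P199L-ERG 3 (adjusted p at most 0.0653). The call of *Tfrc* was lost without any 1 of WT-ERG 1, 2 and 4 and P199L-ERG 1, 2 and 3 (adjusted p at most 0.116).

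Of 19 stem and progenitor genes measured, *Kit* was lower, at 302, 306, 312 and 310.4 CPM with WT-ERG and 271, 273, 272 and 281 CPM with P199L-ERG, and 18 did not pass. In DMSO 5 of the 19 were lower. Of all genes, 2.45% were lower in DMSO and 2.09% under BRD3308. None of the 7 heptad transcription factors, which act together in stem cells, passed, and their fold changes lay between -0.04 and 0.10, where 2 were lower in DMSO. In both lists 0 genes passed the test of the change between treatments, so these counts do not show that the drug changed the difference. *Gata2*, one of the 7, was at 21.9, 19.6, 22.5 and 21 CPM with WT-ERG and 19.9, 19.2, 20.6 and 23.7 CPM with P199L-ERG. The libraries overlapped widely (-0.03, 95% confidence interval -0.20 to 0.15, adjusted p = 0.964), whereas in DMSO *Gata2* was lower in P199L-ERG cells (-0.38, adjusted p = 0.00682). The change between the treatments did not pass (0.36, SE 0.12, adjusted p = 0.638). Of 7 Hox genes and cofactors *Hoxb4* was lower (-0.29, SE 0.08). The call of *Hoxb4* was lost without any 1 of WT-ERG 1 and 4 and P199L-ERG 1, 2 and 3 (adjusted p at most 0.157). It was also lost with DESeq2, with the groups fitted alone and without a filter on low counts.

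For the complex that BRD3308 targets, no difference passed. None of 13 genes of the NCoR-HDAC3 complex and class I HDACs passed, with fold changes from -0.08 to 0.13. *Hdac3* was at 92.9 ± 2.97 and 95.4 ± 1.45 CPM (SD, n = 4), a fold change of 0.04 (95% confidence interval -0.05 to 0.13). *Ncor1* gave 0.07 (-0.04 to 0.18). No gene of the SWI/SNF complex or of the Groucho co-repressors passed. Of 24 Polycomb genes, *Cbx7* (-0.35, SE 0.08) and *Cbx6* (-0.30, SE 0.08), readers of methylated H3K27, were lower, and *Phf19*, an accessory protein of PRC2, was higher (0.33, SE 0.08). The call of *Cbx7* was lost without P199L-ERG replicate 1 (adjusted p = 0.0768), that of *Cbx6* without any 1 of WT-ERG 1, 2 and 3 and P199L-ERG 2, 3 and 4 (adjusted p at most 0.134) and that of *Phf19* without any 1 of WT-ERG 3 and 4 and P199L-ERG 3 (adjusted p at most 0.059).

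Protease inhibitors and matrix genes were lower where they differed. Of 15 serpins and stefins, 5 were lower, *Stfa3*, *Stfa2*, *Serpinb10*, *Serpina3g* and the stefin BC100530. *Serpinb10* was at 85.7, 92.6, 97.9 and 94.3 CPM with WT-ERG and 68.4, 70.3, 72.4 and 74.1 CPM with P199L-ERG (-0.38, SE 0.05, adjusted p = 1.95e-05). *Serpina3g* (log2 fold change -0.39) and BC100530 (-0.56) were named after their values were seen. Of 18 matrix and adhesion genes 5 were lower, among them *Fbln1*, *Vcan*, *Tgfbi* and *Ltbp3*, a latent TGF-beta binding protein (-0.53, SE 0.10, adjusted p = 0.000869). Of 15 integrin subunits, *Itga1* was higher and *Itga2b* lower. The S100 calcium-binding genes *S100a4* (-0.41, SE 0.11) and *S100a6* (-0.32, SE 0.09) were lower, and *S100a10* passed only in some fits (0.16, adjusted p = 0.194, and 0.16, adjusted p = 0.039 with the replicate block). The actin crosslinkers *Actn1* (-0.12, SE 0.03) and *Actn4* (0.12, SE 0.03) differed in opposite directions. The call of *S100a4* was lost without any 1 of WT-ERG 3 and 4 and P199L-ERG 1, 2 and 3 (adjusted p at most 0.205), that of *S100a6* without any 1 of WT-ERG 2, 3 and 4 and P199L-ERG 1, 2, 3 and 4 (adjusted p at most 0.155) and that of *Actn1* without any 1 of WT-ERG 1, 2 and 4 and P199L-ERG 1, 2, 3 and 4 (adjusted p at most 0.125). The call of *Actn4* was lost without any 1 of WT-ERG 2, 3 and 4 and P199L-ERG 1, 2, 3 and 4 (adjusted p at most 0.112).

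Among genes of the immune response, *Cxcl10*, an interferon-induced chemokine, was higher, at 7.11, 6.66, 8.21 and 7.42 CPM with WT-ERG and 13, 12.9, 11.9 and 11.1 CPM with P199L-ERG (0.74, SE 0.11, adjusted p = 4.72e-05). It was the 1 call among 19 cytokines and chemokines. The MHC class I genes *H2-Q6* (0.43, SE 0.05, adjusted p = 1.08e-06) and *H2-Q7* (0.37, SE 0.04, adjusted p = 4.11e-08) were higher, the 2 calls of 18. They are near-identical neighbours whose reads can be shared. Of 25 interferon-stimulated genes, *Ifitm6* (-0.43, SE 0.09) and *Ifitm1* (-0.21, SE 0.06), membrane proteins that restrict viral entry, were lower. *Oasl2* had 0.61 (adjusted p = 0.208). Receptors gave calls in both directions. *Tlr2* (0.27, SE 0.07) and the complement receptor *C5ar1* (0.80, SE 0.21) were higher. The cytokine receptor subunits *Il1rap* (-0.42, SE 0.10) and *Il18rap* (-0.17, SE 0.04), the inhibitory Fc receptor *Fcgr2b* (-0.15, SE 0.04) and the MHC class II chaperone subunit *H2-DMb1* (-0.25, SE 0.05) were lower.

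Several of these calls lay near the threshold, and their fold changes kept their sign whichever library was left out, as *Ifitm1* with -0.23 to -0.18 and *Tlr2* with 0.22 to 0.33 over all alternatives. The call of *Ifitm1* was lost without any 1 of WT-ERG 2, 3 and 4 and P199L-ERG 1, 2, 3 and 4 (adjusted p at most 0.128), that of *Tlr2* without any 1 of WT-ERG 1, 2 and 3 and P199L-ERG 4 (adjusted p at most 0.125) and that of *C5ar1* without any 1 of WT-ERG 1 and 2 and P199L-ERG 1 and 3 (adjusted p at most 0.114). The call of *Il1rap* was lost without WT-ERG replicate 3 (adjusted p = 0.0703), that of *Il18rap* without any 1 of WT-ERG 1 and 4 and P199L-ERG 1, 2 and 3 (adjusted p at most 0.164) and that of *Fcgr2b* without any 1 of WT-ERG 4 and P199L-ERG 1 and 2 (adjusted p at most 0.132). None of the AP-1 and immediate early genes, of the STAT and SOCS genes or of the Ly6 family passed.

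Some genes of DNA replication were slightly higher. Of 37 DNA replication genes, 4 were higher and 0 lower (median 0.10). They were subunits of the MCM helicase, *Mcm6* (693, 696, 679 and 700.4 CPM with WT-ERG, 752, 734, 751 and 753 CPM with P199L-ERG, 0.11, SE 0.03, adjusted p = 0.0128), *Mcm4* (0.13, SE 0.03), *Mcm5* (0.11, SE 0.03) and *Mcm3*, named after its value was seen (log2 fold change 0.11). All 30 mitosis genes had positive fold changes, from 0.02 to 0.13, and none passed. Their median was 0.06, beside 0.00234 over all genes tested. Genes of a list are not independent, and whether this shift differs from the background was not tested. Outside these lists, the spindle gene *Psrc1* (-0.94) and the histone gene *Hist1h4i* (-0.92) were lower. Of 11 cell cycle inhibitors *Cdkn2a*, which encodes p16 and p19ARF, was lower, at 23.2, 24, 22.7 and 24.3 CPM with WT-ERG and 12.6, 14.3, 15.2 and 14.7 CPM with P199L-ERG (-0.73, SE 0.10, adjusted p = 7.82e-06), as was *Cdkn1a*, which encodes p21 (-0.22, SE 0.06). The p53 target and death gene *Bbc3*, which encodes PUMA, was lower (-0.43, SE 0.07, adjusted p = 0.000141), the 1 call among 16 BCL2 family genes. The MAX partner *Mxd4* was lower (-0.20, SE 0.04). In metabolism, the sterol demethylase *Cyp51* (0.19, SE 0.04) and the lactate transporter *Slc16a3* (0.21, SE 0.05) were higher, and no lysosome or ribosome biogenesis gene passed. *Cyp51* was the 1 call among 27 genes of cholesterol synthesis and uptake, of which 8 were higher in DMSO, and whether these counts differ was not tested. The call of *Mcm4* was lost without P199L-ERG replicate 3 (adjusted p = 0.0621), that of *Mcm5* without any 1 of WT-ERG 1, 2 and 3 and P199L-ERG 1, 3 and 4 (adjusted p at most 0.0957) and that of *Cdkn1a* without any 1 of WT-ERG 1, 2 and 3 and P199L-ERG 3 and 4 (adjusted p at most 0.155). The call of *Mxd4* was lost without P199L-ERG replicate 2 (adjusted p = 0.0545) and that of *Slc16a3* without WT-ERG replicate 1 or WT-ERG replicate 2 (adjusted p = 0.0853 at most).

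Some called genes lay side by side. Among genes tested, 22 adjacent pairs were called in 1 direction, and they held 42 of the 441 genes (9.52%). The share to be expected without clustering was not computed, so this count does not show clustering. Some pairs overlap, as *Ino80d* with *Ino80dos*, *Snn* with *Txndc11* and *H1fx* with *Gm5577*, and overlapping genes can share reads. On chromosome 16, 7.12% of tested genes were called, the highest share, beside 1.84% to 4.56% on the other chromosomes and 3.4% of all genes. Whether that share differs from the rest was not tested. There the stefin cluster gave *Stfa2* (36403992 to 36408457) and *Stfa3* (36450537 to 36455392), and the stefins BC117090 (36321665 to 36334332, log2 fold change -0.60) and BC100530 (36359382 to 36367748, -0.56). On chromosome 13 the histone genes *Hist1h4i*, *Hist1h2ag* (-0.78) and *Hist1h2bj* (-0.87) were all lower. These neighbours were named after their values were seen. They belong to families with similar sequences, so their reads can be shared.

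Longer ETS motifs were looked for in the RefSeq promoters, 250 bases before to 50 after the start. The motifs ACCGGAAGT and AGGAAGTG, which share GGAAGT, were searched on both strands, and a gene counted once when any of its promoters held a match. A promoter was found for 9305 of the genes tested, 133 of the higher and 196 of the lower genes. Of the higher genes 8 (6.02%) held either motif and of the lower genes 14 (7.14%), beside 747 (8.03%) of all. ACCGGAAGT was in 4 (3.01%) of the higher, 2 (1.02%) of the lower and 2.73% of all promoters, and AGGAAGTG in 4 (3.01%), 12 (6.12%) and 5.45%. These are matches of letters in a short window and say nothing of binding.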

How the data were processed

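RNA from ER-Hoxb8 cells was sequenced in 24 libraries, 4 in each of 6 groups. The authors trimmed adapters with cutadapt, discarded reads under 30 bp, aligned with STAR to GRCm38 and counted with HTSeq, and they deposited raw counts per gene. Tool versions, the gene annotation used for counting and the strand setting were not given in the sources used here. Without a stated strand setting, overlapping and antisense genes cannot be told apart.

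Counts were scaled by TMM, filtered with filterByExpr and fitted with the quasi-likelihood test of edgeR 4.0.16 (limma 3.58.1, R 4.3.3) on all 24 libraries with 1 coefficient for each group, so that all groups shared 1 estimate of the spread. P-values were adjusted by Benjamini-Hochberg over all 12963 genes, with a threshold of 0.05. Fold changes are log2 of P199L-ERG over WT-ERG, CPM used TMM library sizes, and standard errors came from the test statistic. The change of the variant's effect with the drug was the corresponding interaction contrast. Replicates are described as independent experiments. In the 8 libraries, deviations from group means correlated at 0.134 to 0.567 for the 4 pairs with the same number and at -0.450 to 0.253 for 12 pairs with different numbers. These ranges overlap. WT-ERG 4 with P199L-ERG 3 (0.253) exceeded the same-number pairs of replicates 2 (0.134) and 3 (0.173). In the other pairs of the 6 groups the same-number correlations were positive too, from 0.065 to 0.619, and some different-number pairs were as high. Whether every number pairs the samples was therefore not settled, and blocked values are given where a call changed. No named gene that passed under BRD3308 lost its call with the block. Some calls lost without single libraries had smaller edgeR adjusted p values there, as *S100a6* (0.000271), *Camp* (4.41e-06) and *Tlr2* (0.000312). No 2 libraries were the same within counting noise (chi-square per degree of freedom 1.52 to 23.8 within groups).

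Libraries of 13105875 to 16145090 counts limit precision chiefly for genes of low expression, and intervals cover the spread between replicates. Gene names and coordinates came from GENCODE M21 (53706 of 53801 matched), promoters from RefSeq, matched by symbol. Named genes were the 10 highest and 10 lowest fold changes among called genes with mean log2 CPM at or above 2, no overlap of libraries and a proper symbol, up to 4 members of each list with a call, *Erg*, *Hoxb8*, *Gata2*, *Hdac3*, *Ncor1*, *Ly6c2* and *Clec12a*, the 8 genes with the smallest p of the interaction, and the genes called in both treatments with the largest fold changes. The genes, lists and tests were chosen with earlier results of these data known. Alternatives were RLE size factors, other filters, DESeq2 1.42.0, the replicate block, the groups fitted alone and leaving out each library. Some genes that these rules named are not reported here. Scripts were tested on simulated data.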

Additional observations from a re-analysis of the deposited data

Results flagged for a closer look

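The test of the difference between treatments set these genes apart, since the effect of P199L-ERG differed with BRD3308 and in DMSO. The difference on the log2 scale was -0.49 for *Herpud1*, -0.49 for *Dnajb9*, -0.34 for *Osbpl3*, 0.46 for *Tspoap1* and 0.46 for *Krt80*. No explanation was tested.

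A single library stood apart from the other 3 of its group in 6 of 214 groups examined, where chance gives about 1 in 20. With P199L-ERG and BRD3308, *Kit* was at 281 CPM in replicate 4 against 271 to 273 in the others, and *Tlr2* at 45.4 CPM in replicate 4 against 39.7 in each of the others. *Ly96* was at 1.01 CPM in P199L-ERG replicate 2 against 0.608 to 0.655, and *Mcm6* at 734 CPM in P199L-ERG replicate 2 against 751 to 753. With WT-ERG and BRD3308, *Mxd3* was at 17.4 CPM in replicate 3 against 14.5 to 14.7, and *Fpr2* at 4.34 CPM in replicate 3 against 3.04 to 3.21.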

How the results depend on the processing

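No named gene changed sign between the reported fit and an alternative in which either passed. Of the others, *Gata2*, *Vwf*, *Cd274*, *Il13ra1* and *Tagln* changed sign in at least 1 alternative. In DMSO lower genes outnumbered higher ones (317 against 289), but higher genes did with the replicate block, with DESeq2 (325 against 306) and without P199L-ERG replicate 1 (398 against 343), P199L-ERG replicate 2 (277 against 270), P199L-ERG replicate 4 (279 against 274) or WT-ERG replicate 4 (351 against 328). Of 74 named genes that passed under BRD3308, 46 passed in every alternative and 28 failed in at least 1, while 14 others passed in some. None of the 74 failed with the replicate block. Besides the losses with single libraries left out, calls lost without a filter included those of *Mcm4*, *Mcm5*, *Mcm6*, *Actn1*, *Actn4*, *Tfrc*, *Tgfbi*, *Il18rap*, *Cd79b* and *Hoxb4*. None of the 6 genes of the interaction passed in every alternative. Leaving out 1 library gave 130 to 160 higher and 181 to 217 lower genes under BRD3308, 39 to 51 list genes, 188 to 398 higher and 224 to 343 lower genes in DMSO, and 0 to 3 and 0 to 6 for the interaction. The share of genes called in DMSO with the same sign under BRD3308 was then 88.5% to 95.9%, and the share called again 34.1% to 55.1%, both lowest without P199L-ERG replicate 1 in DMSO.

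With the replicate block, 295 genes were higher and 437 lower under BRD3308, 101 list genes were called, 527 and 499 genes differed in DMSO, and 16 and 12 passed for the interaction, with 86.5% same sign and 39.0% called again. With the groups fitted alone, 91 list genes were called, 101 and 128 genes differed in DMSO, 0 and 1 passed for the interaction, and the shares were 99.6% and 79.3%. With the replicate block and the groups fitted alone, added after seeing the data, 740 genes were higher and 896 lower, with 203 list genes, 7 and 9 for the interaction, and shares of 89.9% and 61.6%. The interaction gave 1 upward gene with RLE size factors, 12 and 9 genes without a filter, 6 and 11 with DESeq2, and 6 and 7 without both DMSO replicates 4. The share of the same sign was 90.6% without a filter, and the share called again 52.8% without both DMSO replicates 4. The cause of these moves was not tested. For genes with few counts, differences below their intervals were not detectable at this depth.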
